A study of Homo sapiens with 6 samples.

Results

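The gamma-tubulin ring complex was examined in the human papillary thyroid carcinoma line BCPAP by way of 10 genes: MZT1, TUBG1, TUBG2, TUBGCP2 to TUBGCP6, NEDD1 and CDK5RAP2. Every probe set that the array annotation pairs with exactly 1 of these symbols was taken, which gave 31 of 49293 probe sets. The complex was chosen by the log2 fold change of MZT1, which was among the largest falls in this comparison, so the values of MZT1 are given as a description with no test. Both groups were transduced with lentivirus and selected with puromycin, and differed in the hairpin: 3 arrays came from cells carrying a short hairpin RNA against CSF2, which encodes the cytokine GM-CSF (shCSF2), and 3 from cells carrying a non-targeting hairpin (shCtrl). The labels call the 3 samples of each group biological replicates. A single cell line was used. The sources used here do not give how many hairpins there were, or their sequences.

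The ring complex is the template on which new microtubules form. Gamma-tubulin molecules sit on a helical ring of GCP proteins, and the ring caps the minus end of the growing microtubule. Small MOZART proteins bind the N-terminal regions of GCP proteins, and adaptors such as NEDD1 and CDK5RAP2 bring the ring to centrosomes and spindles, where dividing cells need it most.

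Each probe set had a log2 expression value on each array, and array medians lay between 5.77 and 5.79. CSF2 had 0 probe sets of its own in the annotation, so the knockdown was not checked here against its target. The thyroid transcription factor genes PAX8 (8.04 to 8.15) and NKX2-1 (9.31 to 9.80) and the keratin genes KRT7, KRT8 and KRT18 were above the array median on all 6 arrays. Of these, NKX2-1 differed between the groups (-0.42, limma adjusted p = 0.000315), as did KRT8 (-0.26, adjusted p = 0.00518). The thyroid genes TG, TSHR and SLC5A5 and the epithelial genes KRT19, EPCAM and CDH1 were below it on all 6. The leukocyte gene PTPRC lay between 2.26 and 2.39, although CD68, PECAM1 and CDH5 were above the median on all 6 arrays. Of the 10 leukocyte, endothelial and fibroblast markers, 0 passed the test between groups (adjusted p of 0.10 or more). RNA quality, read as the log2 difference between the 3' and 5' control probe sets, was 0.57 to 0.66 in shCSF2 and 0.54 to 0.63 in shCtrl for ACTB. For GAPDH it was -0.0193 to 0.00208 in shCSF2 and -0.0487 to -0.0258 in shCtrl, so these small values did not overlap. The part of RNA quality in the results was not tested.

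MZT1, which encodes the small subunit MOZART1, was lower in shCSF2 cells by all 3 of its probe sets. Probe set 11725334_at, the brightest, read 7.87, 7.76 and 7.84 in the 3 shCSF2 samples and 9.53, 9.50 and 9.52 in the 3 shCtrl samples. The log2 fold change (shCSF2 minus shCtrl) was -1.69 ± 0.04 (moderated SE, n = 3 per group), a level 3.23-fold lower in shCSF2. The groups lay far apart against a spread within groups of at most 0.06 (SD). Probe set 11725335_s_at read 7.01, 7.16 and 7.01 in shCSF2 and 8.86, 8.93 and 8.91 in shCtrl, with a log2 fold change of -1.84 ± 0.05. Probe set 11725333_at read 7.88, 7.96 and 7.84 in shCSF2 and 8.94, 9.07 and 8.86 in shCtrl, with a log2 fold change of -1.07 ± 0.06. The groups did not overlap by any of the 3, but the size of the difference ran between 2.10-fold and 3.58-fold lower. Both probe sets designed on a RefSeq mRNA gave the larger differences, and the one designed on another sequence record gave the smaller. The endings _s_at and _x_at mark probe sets whose probes can match other transcripts as well. With the 3 probe sets averaged the log2 fold change was -1.53 ± 0.03. By its brightest probe set MZT1 was the third lowest of 18132 genes by log2 fold change.

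**Figure D1:**
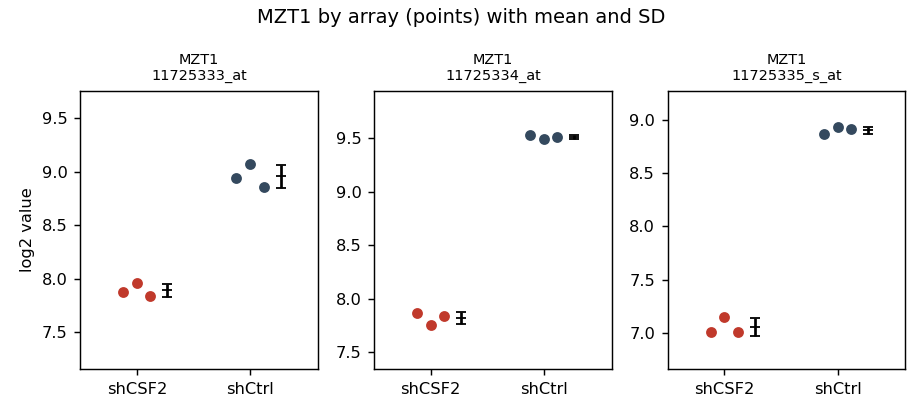
Log2 values of the 3 MZT1 probe sets on each array, with shCSF2 at the left and shCtrl at the right of each panel, and the mean ± SD beside the points; all panels span the same number of log2 units. All 3 shCSF2 arrays lie below all 3 shCtrl arrays in each panel, by -1.07, -1.69 and -1.84 between group means.

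Genes that peak in mitosis moved in the same direction as MZT1. A fall of mitotic genes in these samples was known when their list was drawn up, so its counts are a description. Over the 19 measured genes of a mitotic list, the mean log2 value was 8.69 to 8.73 in shCSF2 and 8.94 to 8.96 in shCtrl, and 14 of the 19 were lower and 0 higher, where 16.0% of all genes were lower and 16.7% higher (gene-level limma fit, adjusted p under 0.05). Brighter genes were called more often. Of the 9066 genes with a mean at or above the median, 2701 were lower and 3097 higher when tested alone. In that fit 17 of the mitotic genes were lower and 0 higher. The part of the mitotic genes in the difference of MZT1 was not tested. In a bulk culture fewer cells in a cell cycle phase and less RNA per cell cannot be told apart.

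The stretch of 250 bases before the transcription start is shown for the members with the largest differences, MZT1 on one side and TUBGCP3 and TUBGCP5, described below, on the other. The sequences are those of RefSeq on GRCh38.p14, written 5′ to 3′ on the strand of the gene: MZT1 at chr13:72727630-72727879, TUBGCP3 at chr13:112588154-112588403 and TUBGCP5 at chr15:23039570-23039819, all on the minus strand. Capitals mark matches, on either strand, to CCAAT (the box bound by NF-Y), TTTGAA (the cell cycle homology region), GGGCGG (the GC box), CCGGAA (the core of ETS sites) or TGACGT (part of the cyclic AMP response element).
MZT1: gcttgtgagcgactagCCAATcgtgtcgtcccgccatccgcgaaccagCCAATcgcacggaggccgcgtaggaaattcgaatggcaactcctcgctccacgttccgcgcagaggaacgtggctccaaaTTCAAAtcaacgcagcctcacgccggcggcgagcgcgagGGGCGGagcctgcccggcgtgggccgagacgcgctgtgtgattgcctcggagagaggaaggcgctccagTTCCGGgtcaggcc
TUBGCP3: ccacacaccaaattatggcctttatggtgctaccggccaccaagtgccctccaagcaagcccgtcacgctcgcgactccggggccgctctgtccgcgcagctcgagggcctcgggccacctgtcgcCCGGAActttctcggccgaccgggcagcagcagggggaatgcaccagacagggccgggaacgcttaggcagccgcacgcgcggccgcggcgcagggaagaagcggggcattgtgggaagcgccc
TUBGCP5: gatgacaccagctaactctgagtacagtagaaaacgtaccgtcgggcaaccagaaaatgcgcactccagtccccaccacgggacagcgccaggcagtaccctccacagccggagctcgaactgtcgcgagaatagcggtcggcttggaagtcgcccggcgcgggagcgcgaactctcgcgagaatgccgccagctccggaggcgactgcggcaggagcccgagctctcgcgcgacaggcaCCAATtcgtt
The MZT1 window held CCAAT 234 and 202 bases before the start and GGGCGG at 83. It also held the reverse complement of TTTGAA at 122 and that of CCGGAA at 14. Each position was counted at the left edge of the match. The TUBGCP3 window held CCGGAA at 124 and none of the other letters, and the TUBGCP5 window held CCAAT at 10 and none of the others. No matches overlapped in these 3 windows. Among the 9 members with a window in the table (TUBGCP4 had none), MZT1 alone held TTTGAA. In at least 1 window, 4 held CCAAT, 6 GGGCGG, 4 CCGGAA and 3 TGACGT. TUBGCP2 and NEDD1 had more than 1 window, so these counts of genes are not on the same footing as shares of windows. Of all 35116 windows of this length in the table, 32.0% held CCAAT, 13.3% TTTGAA, 42.6% GGGCGG, 14.5% CCGGAA and 7.10% TGACGT. A match is a run of letters and was not tested as a binding site.

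For the other 9 genes the test was limma's moderated test across all probe sets, with p-values adjusted over all 49293 by the Benjamini-Hochberg method and a threshold of 0.05. Of their 28 probe sets, 7 were higher and 2 lower in shCSF2 cells, where 29.1% of all probe sets passed (15.3% higher and 13.8% lower). In 12 probe sets the 3 shCSF2 values lay above the 3 shCtrl values and in 2 below, and groups without overlap made up 43.8% of all probe sets. With 1 probe set per gene, 3 of the 9 genes were higher (TUBGCP2, TUBGCP3 and TUBGCP5) and 1 lower (TUBGCP4), against 32.7% of 18132 genes that passed (16.7% higher and 16.0% lower). In 6 of the 9 the groups did not overlap, against 46.7% of all genes. Called in either direction were 9 of the 28 probe sets, near the share over all probe sets. Calls were more often higher and less often lower than over all probe sets, on few genes and with no set test. Of the 24647 probe sets with a mean at or above the median, 14419 passed when tested alone. In that fit 8 member probe sets outside MZT1 were higher and 2 lower. The median log2 fold change of the 9 genes was 0.06, against -0.03 over all genes.

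**Figure D2:**
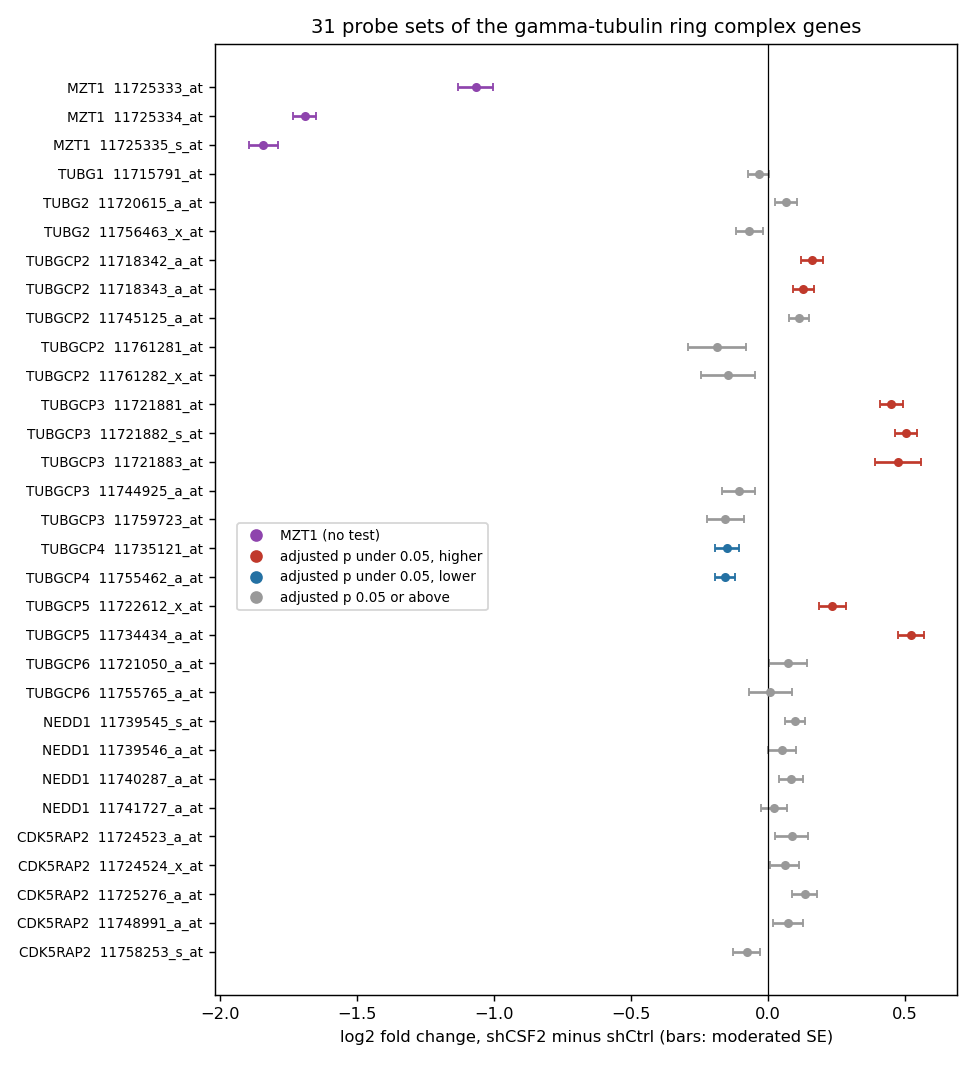
Log2 fold change (shCSF2 minus shCtrl) of each of the 31 probe sets, with bars for the moderated SE; colours mark MZT1 (not tested), probe sets past the threshold in each direction, and the rest. The 3 MZT1 probe sets lie at -1.07 or below, and the other 28 lie between -0.19 and 0.52.

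The gamma-tubulin genes did not pass. TUBG1, the main gamma-tubulin of dividing cells, read 9.98, 10.04 and 10.00 in shCSF2 and 10.01, 10.04 and 10.07 in shCtrl. Its log2 fold change was -0.03 ± 0.04, with a 95% interval of -0.12 to 0.06 (limma adjusted p = 0.577). The groups overlapped, and the interval leaves room only for differences far smaller than that of MZT1. TUBG2, the second gamma-tubulin gene, is a close copy of TUBG1, so their transcripts can share probes and its values are uncertain. Its probe set 11720615_a_at was at 0.06 ± 0.04, with no overlap between the groups and no call (adjusted p = 0.286), and 11756463_x_at was at -0.07 ± 0.05 (adjusted p = 0.365).

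TUBGCP3, whose product GCP3 is a core GCP of the ring and binds MOZART1, rose by 3 of its 5 probe sets. Probe set 11721882_s_at, the brightest, read 7.13, 7.23 and 7.16 in shCSF2 and 6.69, 6.66 and 6.66 in shCtrl. The log2 fold change was 0.50 ± 0.04, or 1.42-fold (limma adjusted p = 0.000244). Probe set 11721881_at read 6.99, 6.99 and 6.98 in shCSF2 and 6.48, 6.59 and 6.55 in shCtrl, a log2 fold change of 0.45 ± 0.04 (adjusted p = 0.000399). Every shCSF2 array was above every shCtrl array by both. Probe set 11721883_at read 5.982, 5.979 and 5.995 in shCSF2 and 5.617, 5.313 and 5.601 in shCtrl, with a log2 fold change of 0.47 ± 0.08 (adjusted p = 0.00518). The remaining probe sets of TUBGCP3 pointed the other way without passing. Probe set 11744925_a_at was at -0.11 ± 0.06 (adjusted p = 0.247) and the dim 11759723_at at -0.16 ± 0.07 (adjusted p = 0.132), and in both the groups overlapped. The second fell when shCSF2 replicate 3 was left out (adjusted p = 0.0421). A further probe set, 11721884_s_at, is paired with TUBGCP3 and LINC00431 and so falls outside the 31. It too lay higher on every shCSF2 array than on any shCtrl array, with a log2 fold change of 0.39 ± 0.05 (adjusted p = 0.000989).

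Whether the probe sets of a gene changed by different amounts was asked with limma's diffSplice F test, adjusted over 11734 genes with more than 1 probe set, of which 15.7% passed. On simulated data 14 of 119 calls of this test were false, above the nominal rate. TUBGCP3 passed (F = 26.3, adjusted p = 1.51e-06), so by this test its probe sets did not share 1 size of change. With all 5 probe sets averaged, TUBGCP3 was 0.23 ± 0.04 higher (limma adjusted p = 0.00316), less than 0.50 by the brightest. TUBGCP5 also passed (F = 17.4, adjusted p = 0.0132), but not without shCSF2 replicate 1, shCtrl replicate 1 or shCtrl replicate 2, where the adjusted p was 0.0526, 0.0556 and 0.0708. In TUBGCP2 the test gave an adjusted p of 0.0526, and in TUBG2, TUBGCP4, TUBGCP6, NEDD1 and CDK5RAP2 it lay between 0.221 and 0.970.

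TUBGCP5, the gene of a GCP found in the full ring, rose by both of its probe sets. Probe set 11734434_a_at read 5.81, 5.87 and 5.79 in shCSF2 and 5.33, 5.24 and 5.34 in shCtrl. Its log2 fold change was 0.52 ± 0.05, or 1.44-fold (limma adjusted p = 0.000321). Probe set 11722612_x_at read 5.99, 6.06 and 5.92 in shCSF2 and 5.78, 5.77 and 5.71 in shCtrl, a log2 fold change of 0.23 ± 0.05 (adjusted p = 0.0117). The groups did not overlap in either, and the values sit close to the array median, so TUBGCP5 was read at modest signal.

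**Figure D3:**
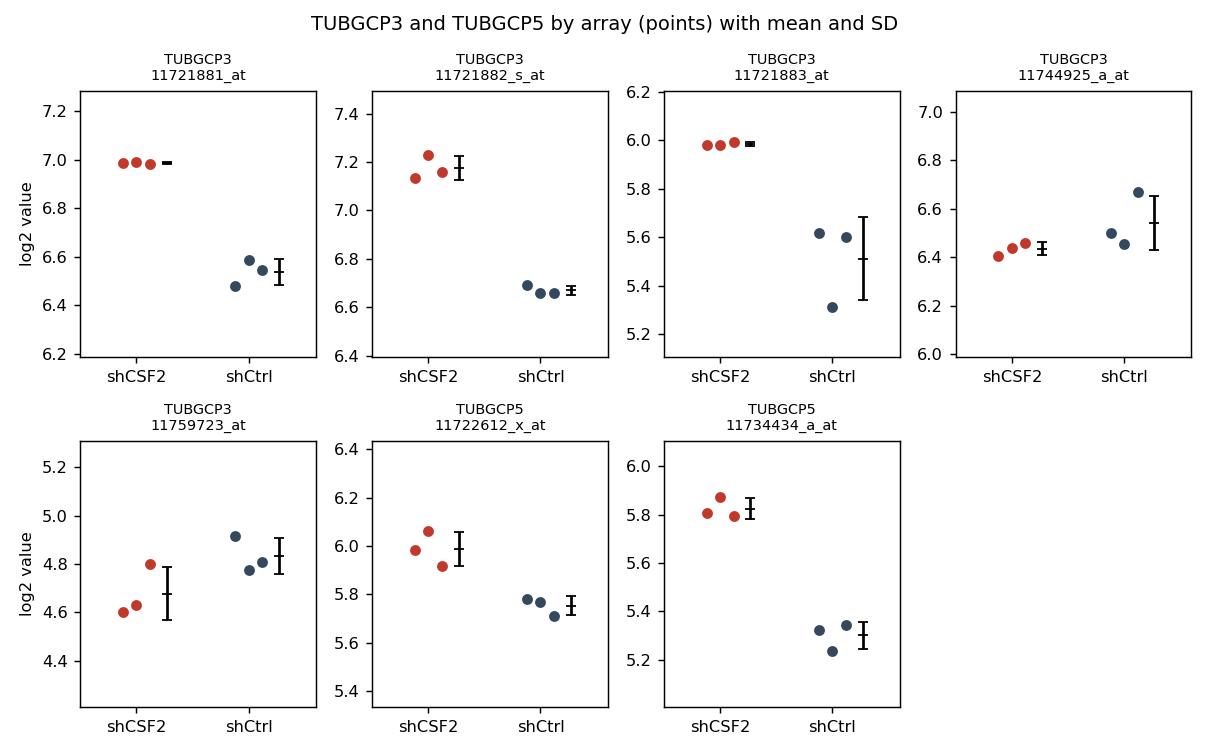
Log2 values on each array for the 5 probe sets of TUBGCP3 and the 2 of TUBGCP5, with shCSF2 at the left and shCtrl at the right and the mean ± SD beside the points; all panels span the same number of log2 units. In 3 panels of TUBGCP3 and both of TUBGCP5 the shCSF2 arrays lie above the shCtrl arrays, and in the other 2 of TUBGCP3 the groups overlap.

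TUBGCP4, the gene of the smallest GCP, fell by both probe sets. Probe set 11755462_a_at read 7.70, 7.74 and 7.71 in shCSF2 and 7.90, 7.87 and 7.86 in shCtrl. The log2 fold change was -0.16 ± 0.04 (limma adjusted p = 0.0190). Probe set 11735121_at read 7.08, 7.10 and 7.05 in shCSF2 and 7.29, 7.18 and 7.22 in shCtrl, a log2 fold change of -0.15 ± 0.04 (adjusted p = 0.0403). The groups did not overlap, but the probe set calls rest on few arrays: 4 of the 6 fits that left out 1 array lost the first and 5 lost the second. Both were lost without shCSF2 replicate 1, without shCSF2 replicate 3 and without shCtrl replicate 1. The first was also lost without shCtrl replicate 2, and the second without shCSF2 replicate 2 and without shCtrl replicate 3. The adjusted p reached 0.0656 for the first and 0.119 for the second. The gene-level call of TUBGCP4 (-0.16 ± 0.03, limma adjusted p = 0.0116) was kept in all 6. It was lost with the most variable probe set (adjusted p = 0.0575).

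TUBGCP2, whose product pairs with GCP3 and gamma-tubulin in the basic unit of the ring, showed small differences. Probe sets 11718342_a_at (0.16 ± 0.04, adjusted p = 0.0222) and 11718343_a_at (0.13 ± 0.04, adjusted p = 0.0406) passed, and 11745125_a_at (0.11 ± 0.04, adjusted p = 0.0531) did not. In all 3 the shCSF2 values lay above the shCtrl values, as in 11745125_a_at with 6.94, 6.94 and 6.96 in shCSF2 and 6.81, 6.84 and 6.84 in shCtrl. The dim probe sets 11761281_at (-0.19 ± 0.11) and 11761282_x_at (-0.15 ± 0.10) were below the array median on all 6 arrays and did not pass. The call of 11718342_a_at was lost in 4 of the 6 fits without 1 array (without shCSF2 replicate 1 or 2, or shCtrl replicate 1 or 2; adjusted p up to 0.0743). That of 11718343_a_at was lost in all 6 (adjusted p up to 0.121). The gene-level call of TUBGCP2 (0.11 ± 0.03, adjusted p = 0.0339) was also lost in all 6. With all 5 averaged the log2 fold change was 0.01 ± 0.05 (adjusted p = 0.842). TUBGCP6, the gene of the largest GCP, was dim, with both probe sets below the array median on all 6 arrays. Its log2 fold changes were 0.07 ± 0.07 (adjusted p = 0.488) and 0.01 ± 0.08 (adjusted p = 0.948), and a difference of up to 0.24 lay within the 95% interval of the first.

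The adaptor genes did not pass either. NEDD1, which carries the ring to the spindle and to centrosomes, was measured by 4 probe sets with log2 fold changes of 0.02 to 0.10. Its brightest, 11739545_s_at, read 9.09, 9.10 and 9.05 in shCSF2 and 8.99, 8.99 and 8.96 in shCtrl, without overlap, but its log2 fold change of 0.10 ± 0.04 missed the threshold (limma adjusted p = 0.0908). It passed in 3 alternative fits, both filters on dim probe sets and the variance trend (adjusted p of 0.0137 to 0.0361). CDK5RAP2, which binds the ring at the centrosome and can activate it, had 5 probe sets with log2 fold changes of -0.08 to 0.13. The nearest to the threshold was 11725276_a_at, with 6.73, 6.64 and 6.69 in shCSF2 and 6.61, 6.56 and 6.50 in shCtrl (0.13 ± 0.05, adjusted p = 0.0738). It passed with both filters on dim probe sets (adjusted p of 0.0184 and 0.0293).

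The genes around the ring complex were taken as 10 lists, with 115 of 124 genes measured and 1 probe set per gene. Of the 115, 26 were higher and 43 lower in shCSF2 cells by the gene-level limma fit, against the 16.7% and 16.0% of all genes given above. Those shares include dim genes, which passed less often. Of the 9066 genes with a mean at or above the median, 5798 were called when tested alone. In that fit 27 list genes were higher and 52 lower. The part of signal level in the list counts was not tested. The median log2 fold change of the 115 was -0.07, against -0.03 over all genes. The lists were chosen with earlier results known, so their counts are a description. A fall of mitotic genes in these samples had been seen before.

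All 3 measured accessory subunits fell: MZT2A, the relative of MZT1 (-0.16 ± 0.04, adjusted p = 0.0155), ACTB, whose product actin lies inside the ring (-0.18 ± 0.03, adjusted p = 0.00594), and LGALS3BP (-0.16 ± 0.04, adjusted p = 0.0319). MZT2A read 8.70, 8.71 and 8.76 in shCSF2 and 8.85, 8.90 and 8.88 in shCtrl, and has a close copy, MZT2B, that is not analysed here, so its value is uncertain. Its difference was far smaller than that of MZT1. ACTB lost its call by its most variable probe set (adjusted p = 0.111). MZT2A lost its call without shCSF2 replicate 1 or shCtrl replicate 2. LGALS3BP lost it in 4 of the 6 fits without 1 array (without shCSF2 replicate 1 or 3, or shCtrl replicate 2 or 3), with an adjusted p of up to 0.0963. Without shCSF2 replicate 1 or shCtrl replicate 2, then, 1 of the 3 passed.

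Augmin, an assembly of HAUS proteins that docks the ring onto existing spindle microtubules, had 2 of 8 genes higher and 3 lower (median -0.01). The higher count was 1 in each fit without 1 array, other than that without shCSF2 replicate 1. HAUS8 was lower (-0.30 ± 0.04, adjusted p = 0.000812) and HAUS2 higher (0.27 ± 0.04, adjusted p = 0.00186). HAUS6 was lower by its brightest probe set (-0.18 ± 0.04), but was at 0.02 with all 4 probe sets averaged and 0.33 higher by its most variable one, so its direction is uncertain. Among 13 genes of the pericentriolar scaffold and tethers, 5 rose and 4 fell (median 0.02). AKAP9, a large anchor of the ring at centrosome and Golgi, rose (0.36 ± 0.03, adjusted p = 0.000310), with 7.23, 7.28 and 7.26 in shCSF2 and 6.89, 6.89 and 6.91 in shCtrl. PDE4DIP, which encodes myomegalin, a relative of CDK5RAP2, rose at low signal (0.34 ± 0.08, adjusted p = 0.0169) and lost its call in 3 of the 6 fits without 1 array (without shCSF2 replicate 3, shCtrl replicate 1 or shCtrl replicate 2). PCM1, the centriolar satellite scaffold, rose (0.27 ± 0.05, adjusted p = 0.00421), by 0.16 with its probe sets averaged.

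Of 10 centrosome and spindle kinases, 3 fell and 1 rose (median -0.08). NEK2, a kinase that separates centrosomes (-0.48 ± 0.04, adjusted p = 0.000202), and NEK6, a mitotic kinase (-0.31 ± 0.03, adjusted p = 0.000594, or -0.49 with its most variable probe set), fell, and LATS1 of the Hippo pathway rose at low signal (0.26 ± 0.05, adjusted p = 0.00728), a call lost with its most variable probe set (adjusted p = 0.124). Of 16 nucleation and assembly factors, 8 fell and 1 rose (median -0.13). DLGAP5 (-0.45 ± 0.04, adjusted p = 0.000170) and TACC3 (-0.25 ± 0.03, adjusted p = 0.00155), which bind spindle microtubules, fell, while RAN, the GTPase that releases spindle assembly factors around chromosomes, rose (0.26 ± 0.03, adjusted p = 0.00121).

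The list of minus-end, severing and depolymerising proteins had 8 of 14 genes higher and 3 lower, with a median log2 fold change of 0.24. CAMSAP2, which stabilises minus ends that are free of the ring complex, rose most, with 8.77, 8.80 and 8.70 in shCSF2 and 8.17, 8.16 and 8.08 in shCtrl. Its log2 fold change was 0.62 ± 0.04 (adjusted p = 0.000122), or 0.36 with its 3 probe sets averaged. The severing enzyme gene SPAST also rose (0.46 ± 0.05, adjusted p = 0.000541), whereas KIF2C, a mitotic depolymerising kinesin, fell (-0.54 ± 0.04, adjusted p = 0.000153).

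**Figure D4:**
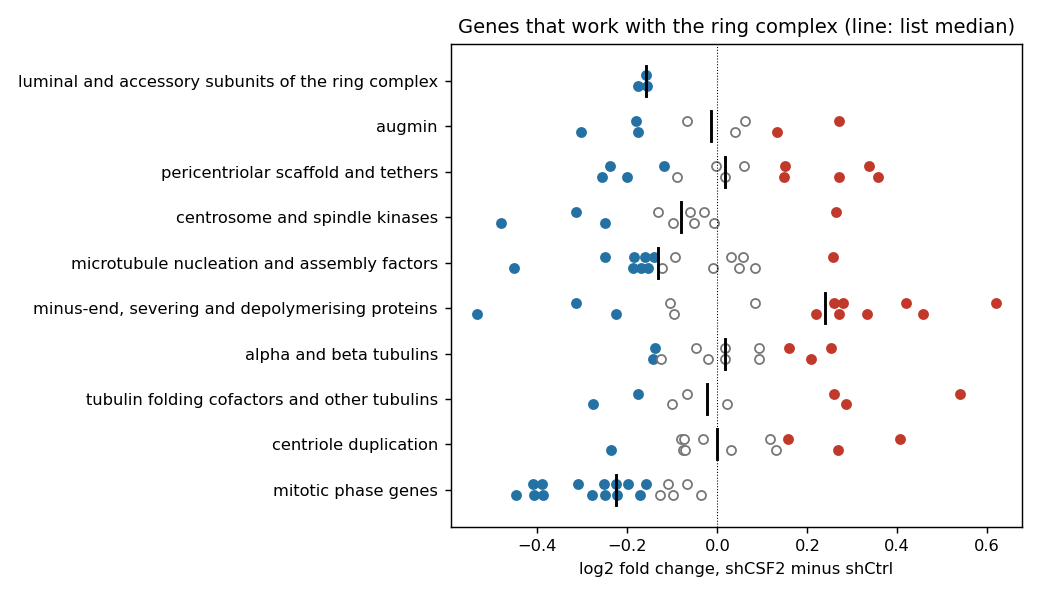
Log2 fold change (shCSF2 minus shCtrl) of each measured gene in the 10 lists, 1 point per gene, red for higher and blue for lower past the threshold, open for the rest, and a black line at each list's median. The mitotic list has 14 lower and 0 higher genes and a median of -0.23, and the minus-end and severing list has the highest median, 0.24.

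Alpha and beta tubulin genes had 3 of 12 higher and 2 lower (median 0.02), or 41.7% called against 32.7% of all genes. The share called was larger among brighter genes, as given above. The lower count was 0 without shCSF2 replicate 3 or shCtrl replicate 3, and 1 without shCSF2 replicate 2 or shCtrl replicate 1. TUBB1, at low signal (0.25 ± 0.04, adjusted p = 0.00312), and TUBA1C (0.21 ± 0.04, adjusted p = 0.00858) were higher, and TUBB6 was higher by its brightest probe set (0.16 ± 0.03) but at -0.12 by its most variable. Tubulin genes are close copies of each other, so their values are uncertain. Of 8 tubulin cofactors and rare tubulins, 3 rose and 2 fell (median -0.02). TUBE1, the gene of epsilon-tubulin of the centriole, rose (0.54 ± 0.04, adjusted p = 0.000123), as did the folding cofactor gene TBCE (0.29 ± 0.04, adjusted p = 0.00149), and ARL2, the GTPase that works with these cofactors, fell (-0.28 ± 0.04, adjusted p = 0.00181, or -0.16 averaged). Among 12 centriole duplication genes, 3 rose and 1 fell (median -0.001). CEP63 (0.41 ± 0.06, adjusted p = 0.00159) and CCP110, which caps centrioles (0.27 ± 0.05, adjusted p = 0.00417, or 0.44 with its most variable probe set), rose, and the centrin gene CETN3 fell (-0.24 ± 0.04, adjusted p = 0.00620). In the mitotic list BIRC5 (-0.45 ± 0.04, adjusted p = 0.000274), AURKB (-0.41 ± 0.04, adjusted p = 0.000243) and MKI67 (-0.41 ± 0.04, adjusted p = 0.000409) fell most, MKI67 by its brightest probe set and only by -0.01 with all 6 averaged.

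The genes most like MZT1 over the 6 arrays were found by the root mean square difference between values centred on the shCtrl mean, among genes with a mean log2 value of at least 6. Among the 5 nearest were HAPLN1 (difference 0.110 log2 units), ACTC1 (0.135), TENM2 (0.178) and EFEMP1 (0.293). EFEMP1, which encodes an extracellular matrix protein, read 7.62, 7.68 and 7.68 in shCSF2 and 8.94, 8.93 and 8.96 in shCtrl, a log2 fold change of -1.28 ± 0.04. None of these belongs to the ring complex or to the 10 lists, which the measure fixed in advance. It finds falls of a size like that of MZT1, and MZT1 was chosen for its fall. The other members and the list genes fell far less, KIF2C the most at -0.54. For ACTC1 the fold change was -1.86 ± 0.04 by the probe set used and -0.94 with both probe sets averaged.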

How the data were processed

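Total RNA from 6 BCPAP cultures was hybridised to Affymetrix PrimeView arrays. Per the labels' protocols, puromycin selection began 48 hours after transduction and lasted 7 days, and cRNA was made from 200 ng of RNA. The authors deposited a table of log2 values, 1 per probe set and array. Per the submitters' processing notes RMA, oligo and limma were used, with versions and roles not given in the sources used here. RMA compresses differences at low signal. The number of arrays limits the precision, and no 2 arrays held identical values.

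Of 49395 probe sets, 102 were controls. Of the rest, 44988 were paired with 1 symbol, 1832 with several and 2473 were not listed in the annotation. Symbols were checked through gene identifiers against RefSeq (GRCh38.p14): 27 did not match and 0 changed. Promoter windows are RefSeq's, without the 50 bases after the start. Probe set levels served to choose the brightest per gene and to mark dim ones. They were not used to rank genes by expression.

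Groups were compared by limma 3.58.1 in R 4.3.3 (lmFit, eBayes), over 49293 probe sets and, with the probe set of highest mean per gene, over 18132 genes. Limma's diffSplice compared probe sets within genes. Benjamini-Hochberg adjusted p-values counted as called under 0.05. Every log2 fold change is given as shCSF2 minus shCtrl, with its moderated SE. The members, lists and rule for named genes were chosen with earlier results of these data known. The rule named all members, up to 3 called genes per list with the largest absolute change (otherwise 2 genes), and the 5 genes most like MZT1, of which 1 is not reported here. Alternatives were 2 filters on dim rows, 3 normalisations, array weights, robust estimation with a variance trend, the replicate number as a block, leaving out each array, and other ways to choose a probe set per gene. The sample titles number the replicates without naming pairs. Deviations of same-numbered arrays correlated with r = 0.0337, 0.0507 and 0.0333 across probe sets. For arrays with different numbers r lay between -0.0622 and 0.0302. These small values do not settle whether the samples were paired, so the fits are given without pairing and the block as an alternative.

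The fits were tested on simulated data. Over 49293 probe sets, 28% of those changed by 0.3, 82% at 0.5 and 100% at -1 were recovered, and 5 of 110 calls were false. Over 18132 genes, 38.9% at 0.3, 83.3% at 0.5 and 100% at -1 were recovered, and 3 of 40 calls were false. For probe sets differing within 11734 genes, 41.7%, 88.9% and 100% were recovered at these sizes, and 14 of 119 calls were false, above the nominal rate. Changes of 0.15 were not recovered (0%) in any of the 3. Fewer rows were changed there than passed in the data, which made the Benjamini-Hochberg cutoff stricter in the simulation. The recovered shares are therefore not those of the fits reported, in which some changes of about 0.15 were called. Figures were drawn with matplotlib 3.10.9.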

Additional observations from a re-analysis of the deposited data

How the results depend on the processing

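Of 104 values of the counts that answer the comparisons under alternatives, 92 stayed within 1.5 times the reported count. The count of lower probe sets outside MZT1, 2 in the fit reported, was 1 with the replicate block and lay between 0 and 1 when each array was left out, and the count of genes other than MZT1 whose probe sets differed, 2 as reported, was 1 when rows below the median were left out and 1 to 3 when each array was left out. The count of lower genes other than MZT1, 1 as reported, was 0 with the most variable probe set per gene. With the replicate block the higher probe sets numbered 5, against 7 without it, and the higher genes 2, against 3. Whether the replicate numbers mark pairs is not known, and every pair's r was at most 0.0507. For named genes, 4 values reversed: TUBGCP2 was -0.19 by its most variable probe set (adjusted p = 0.244), HAUS6 was 0.0192 averaged and 0.33 by its most variable probe set, and TUBB6 was -0.12. MZT1 lay between -1.84 and -1.53 at gene level over all 16 alternatives. The log2 fold changes of the passing TUBGCP3 and TUBGCP5 probe sets passed in every alternative in which they were kept. Differences of about 0.15, as in TUBGCP2 and TUBGCP4, are at the limit of 3 arrays per group.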
